A study of Mus musculus with 6 samples.

Results

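The mitochondrial respiratory chain is a set of protein complexes in the inner mitochondrial membrane. Complexes I and II pass electrons from NADH and succinate to ubiquinone, complex III passes them to cytochrome c and complex IV passes them to oxygen, while complex V, the ATP synthase, uses the proton gradient that complexes I, III and IV build. Most subunits are encoded in the nucleus and imported, and a small set is encoded in mitochondrial DNA, so an assembled complex, other than complex II, draws on both genomes. In the prostate the secretory luminal cells are known for an unusual citrate metabolism, and the basal cells lie beneath them along the basement membrane.

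The genes described here are the nuclear-encoded subunits of the 5 complexes, chosen by symbol only: protein-coding genes whose symbols begin with Ndufa, Ndufb, Ndufc, Ndufs, Ndufv, Uqcr, Atp5, Cox4, Cox5, Cox6, Cox7 or Cox8, together with Sdha, Sdhb, Sdhc and Sdhd. The annotation held 93 such genes, of which 91 received a value and 84 were expressed highly enough to be tested, among 25273 genes with a value and 10255 tested. The symbols also take in 8 assembly factors of complex I (Ndufaf genes), which build the complex and are not part of it, and Atp5s, a coupling factor. They miss Cyc1, a cytochrome subunit of complex III, which is listed below with the electron carriers and not counted as a respiratory chain gene. Ndufa11 and Ndufaf5 received no value because no deposited transcript matched them. The 7 genes with a value that fell below the expression minimum were Cox4i2, Cox6a2, Cox7a1, Cox7b2, Cox8b, Cox8c and Ndufa4l2. By complex, 42 tested genes belonged to complex I, 4 to complex II, 8 to complex III, 13 to complex IV, with Ndufa4 placed there by its role, and 17 to complex V.

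Total RNA was sequenced from prostate basal cells of C57BL/6 mice aged 8 to 12 weeks, with no treatment or mutation named, in 2 groups of 3 libraries: cells of the distal ducts, toward the gland tips, and cells of the proximal ducts, near the urethra. The cells were dissociated and sorted by fluorescence. The labels do not give the antibodies that define a basal cell. They also describe a stromal culture without saying whether basal cells passed through it, and do not say whether a library stands for 1 animal or several, so every p-value reflects the spread among these libraries only, and that spread may be technical. The comparison asks how basal cells of the 2 duct regions differ.

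Expression is given as FPKM, the number of sequenced fragments divided by transcript length in kilobases and by the library's fragment total, so levels can be compared between genes. The deposited intervals imply a depth of 21400000 to 27400000 fragments per library, and 9910 to 10301 genes reached 1 FPKM. The basal markers were present in all 6 libraries: Krt14 stood at 2720 ± 597 FPKM in distal cells and 2190 ± 80.3 FPKM in proximal cells, Krt5 at 380 ± 50.7 and 618 ± 48.9 FPKM, and Trp63 at 58.5 ± 21.2 and 34.2 ± 5.79 FPKM (SD, n = 3). Markers of other cells differed between the regions. The summed level of 8 proximal luminal progenitor markers was 793 to 864 FPKM in distal and 1530 to 1820 FPKM in proximal libraries, and 6 of the 8 rose. The summed level of 7 endothelial and pericyte markers was 4.02 to 11.3 and 21.4 to 26.6 FPKM, and 6 of the 7 rose. None of the markers in these 2 lists was listed at 0 in all libraries. The summed level of 10 dissociation-response genes was 4990, 11700 and 12100 FPKM in the distal libraries and 3820, 4630 and 5030 FPKM in the proximal ones, and 2 of the 10 fell. All 10 differences, proximal minus distal on the log2(FPKM + 1) scale, were below 0, with a median of -0.92. Of 10 basal markers 4 rose and 0 fell, at summed levels of 7680 to 9390 FPKM in distal and 8870 to 9140 FPKM in proximal libraries. Of 11 tested luminal markers 2 rose and 2 fell, at 2490 to 3280 and 3430 to 3670 FPKM. Of 5 tested fibroblast markers 3 rose, at summed levels of 765 to 810 FPKM in distal and 679 to 749 FPKM in proximal libraries, and both tested nerve and glia markers rose, at 0.913 to 2.53 and 8.46 to 13.3 FPKM. Of 6 tested secretory products of prostate and seminal vesicle 1 rose and 1 fell, and 5 differences were above 0, with a median of 2.8. Their median deviation from each gene's mean was -0.96, -0.90 and -1.07 in the distal and -0.65, 1.52 and 2.05 in the proximal libraries. The summed level of that list ran the other way, at 1460 to 1980 FPKM in distal and 828 to 1140 FPKM in proximal libraries. The part of these differences in the results on the respiratory chain was not tested, and in bulk RNA fewer cells of a type and less RNA per cell cannot be told apart.

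Respiratory chain genes stood slightly lower in proximal than in distal basal cells, and few of them individually passed the test. The fitted difference, proximal minus distal on the log2(FPKM + 1) scale, was below 0 for 75 of the 84 tested genes (89.3%), against 51.5% of all tested genes. It was below 0 for 71 to 75 of them under the other scalings between libraries. On leaving out 1 library the count ran from 65, without distal replicate 1, to 79, without distal replicate 3. The shares of all tested genes below 0 under these scalings and left-out libraries are not given here. Of the 52 with transcripts under 800 bases 94.2% were below 0, against 68.6% of the other tested genes of that length. The median difference was -0.26, against -0.01 for all tested genes. Of the 84, 5 fell in proximal cells (5.95%, limma, Benjamini-Hochberg adjusted p under 0.05), where 2.5% of all tested genes fell, and 0 rose, where 4.52% of all tested genes rose. On leaving out 1 library the number that fell was 0 without distal replicate 2, proximal replicate 2 or proximal replicate 3. Of all tested genes 0.439%, 0.507% and 0.702% fell there. The number was 1 without distal replicate 3 (1.19%, against 0.546% of all tested genes) and 13 without proximal replicate 1 (15.5%, against 5.39%). Without distal replicate 1 it was 2 (2.38%, against 5.99%), so the order of these shares was reversed. At an unadjusted p under 0.05, 21 were lower (25%, against 11.9% of all tested genes) and 0 higher (12.1% of all tested genes). The 5 genes that fell were Ndufa6, Ndufa7, Ndufb9 and Ndufaf3 of complex I and Cox7a2l, which joins complexes III and IV. In 17 genes every proximal library lay below every distal library (20.2%, against 13.0% of all tested genes), and in 0 did every proximal library lie above (15.8% of all tested genes).

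**Figure D1:**
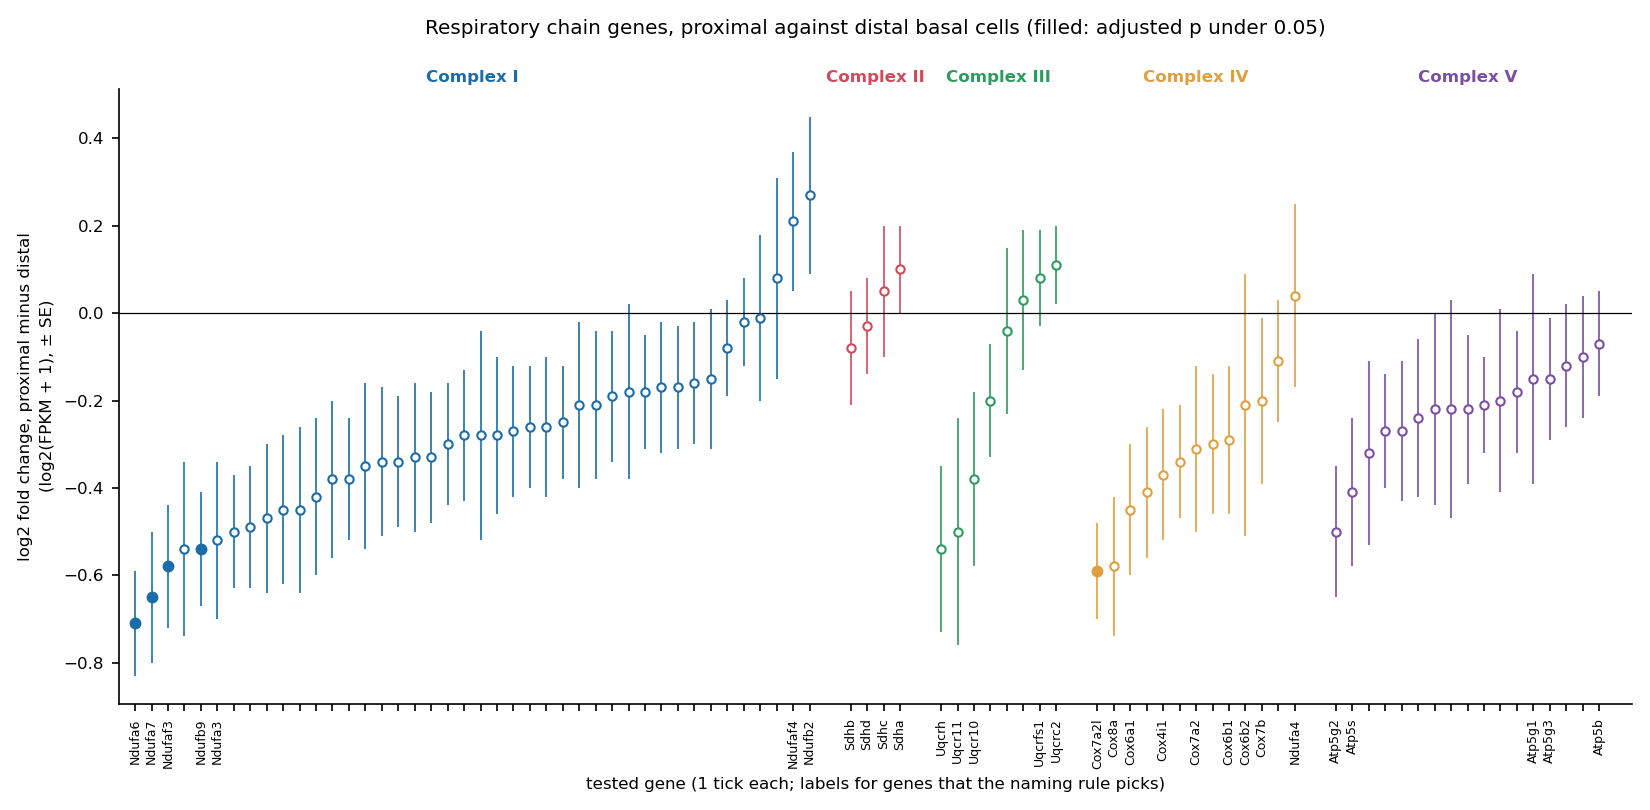
Difference of each of the 84 tested genes between proximal and distal basal cells (log2 fold change on log2(FPKM + 1), bars ± SE, n = 3 libraries per group), ordered within each complex, with labels for the genes that the naming rule picks. The 5 filled points are the genes with an adjusted p under 0.05, complex II lies around 0, and every complex V gene lies below 0 with an open point.

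Summed over all 91 genes with a value, the level was 11600, 8970 and 8720 FPKM in the distal libraries and 9300, 7140 and 7680 FPKM in the proximal ones, with means of 9770 ± 1610 and 8040 ± 1130 FPKM (SD, n = 3). The groups overlapped, because proximal replicate 1 lay above distal replicates 2 and 3. Distal replicate 1 had the highest sum in complexes I, III, IV and V. Relative to each gene's mean over the 6 libraries, the median deviation of the 84 genes was 0.40, 0.03 and -0.01 in the distal and 0.08, -0.31 and -0.19 in the proximal libraries on the log2 scale. Both libraries numbered 1 thus stood highest in their group. Without both of them the median difference was -0.22, against -0.03 for all tested genes, and 28 of the 84 genes fell, where 12.9% of all tested genes fell.

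**Figure D2:**
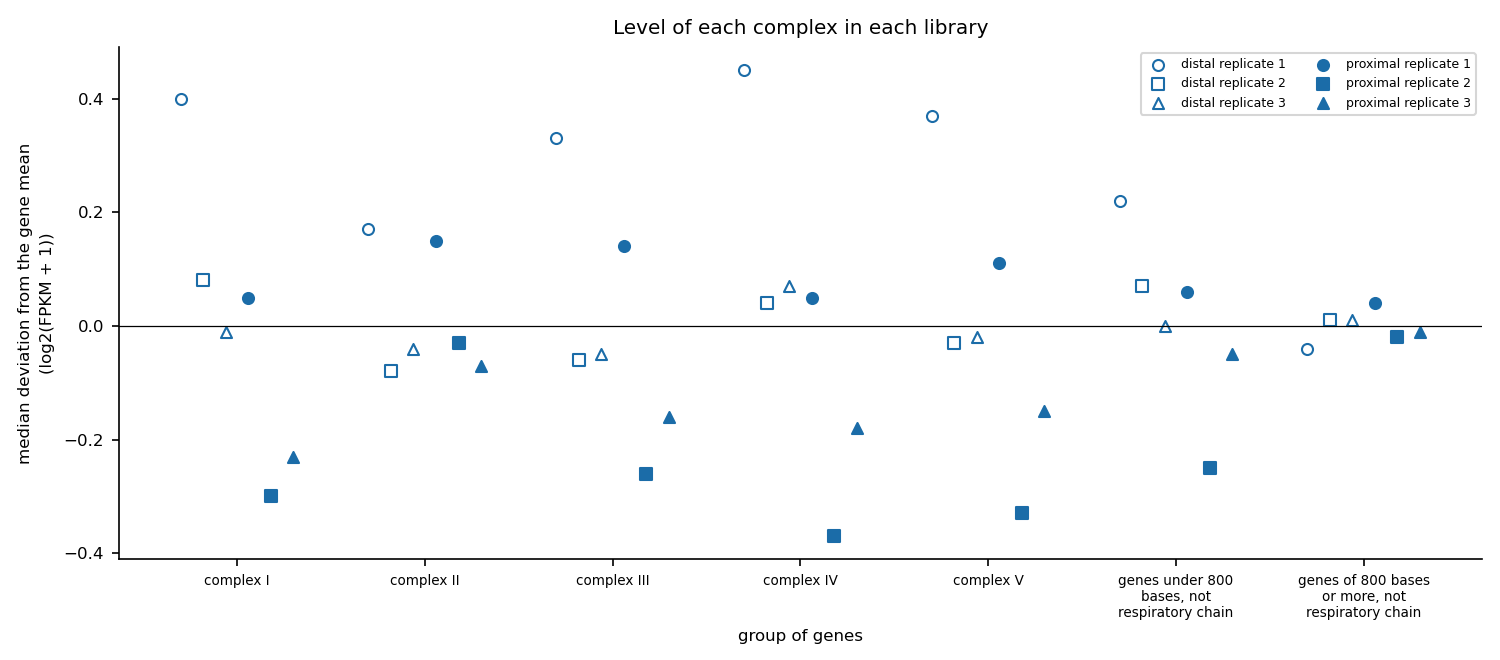
Median deviation of the genes of each complex from their own mean over the 6 libraries (log2(FPKM + 1)), 1 point per library, with the genes outside the respiratory chain divided at a transcript length of 800 bases. In complexes I, III, IV and V distal replicate 1 stands highest and proximal replicate 2 lowest. Short genes outside the respiratory chain show the same order at 0.22 and -0.25, and longer ones stay within -0.04 to 0.04.

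Complex I, the NADH dehydrogenase, held 42 of the 84 tested genes and 4 of the 5 that fell, where 2.5% of all tested genes fell. Its 42 tested genes had a median difference of -0.28, and 39 were below 0. Ndufa6 encodes an accessory subunit of the LYR-motif family that binds the mitochondrial acyl carrier protein, and lies on chr15:82350140-82354322 (minus strand, mm10). It was at 101, 104 and 88.0 FPKM in the distal libraries and 66.7, 56.1 and 54.8 FPKM in the proximal ones. The groups were well apart, and Ndufa6 fell by 0.71 ± 0.12 on the log2 scale (SE, limma, adjusted p = 0.0119). Ndufa7, an accessory subunit of the matrix arm (chr17:33824572-33838317, plus strand), was at 286, 240 and 221 FPKM in the distal libraries and 186, 137 and 153 FPKM in the proximal ones. Every proximal value lay below every distal value, and Ndufa7 fell by 0.65 ± 0.15 (SE, limma, adjusted p = 0.0413).

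Ndufb9, a LYR-motif subunit of the membrane arm (chr15:58933756-58939488, plus strand), was at 223, 189 and 181 FPKM in the distal libraries and 153, 133 and 121 FPKM in the proximal ones. The groups did not overlap, and Ndufb9 fell by 0.54 ± 0.13 (SE, limma, adjusted p = 0.0481). Ndufaf3, a factor that helps assemble the part of complex I that carries electrons to ubiquinone (chr9:108565537-108567434, minus strand), was expressed far lower, at 7.71, 7.85 and 6.88 FPKM in the distal libraries and 5.62, 4.11 and 4.36 FPKM in the proximal ones. It fell by 0.58 ± 0.14 (SE, limma, adjusted p = 0.0465). Its annotated end overlaps that of the neighbouring gene Impdh2, and the sources used here do not say that reads were counted by strand. Ndufa6 kept its call under 17 of 20 alternative settings, Ndufa7 under 13, Ndufaf3 under 12 and Ndufb9 under 10. Each of the 4 missed the threshold without distal replicate 2, without proximal replicate 2 and without proximal replicate 3, where their adjusted p lay between 0.0522 and 0.186. Ndufa7, Ndufb9 and Ndufaf3 also missed it without distal replicate 1 and without distal replicate 3, at 0.0649 to 0.11.

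**Figure D3:**
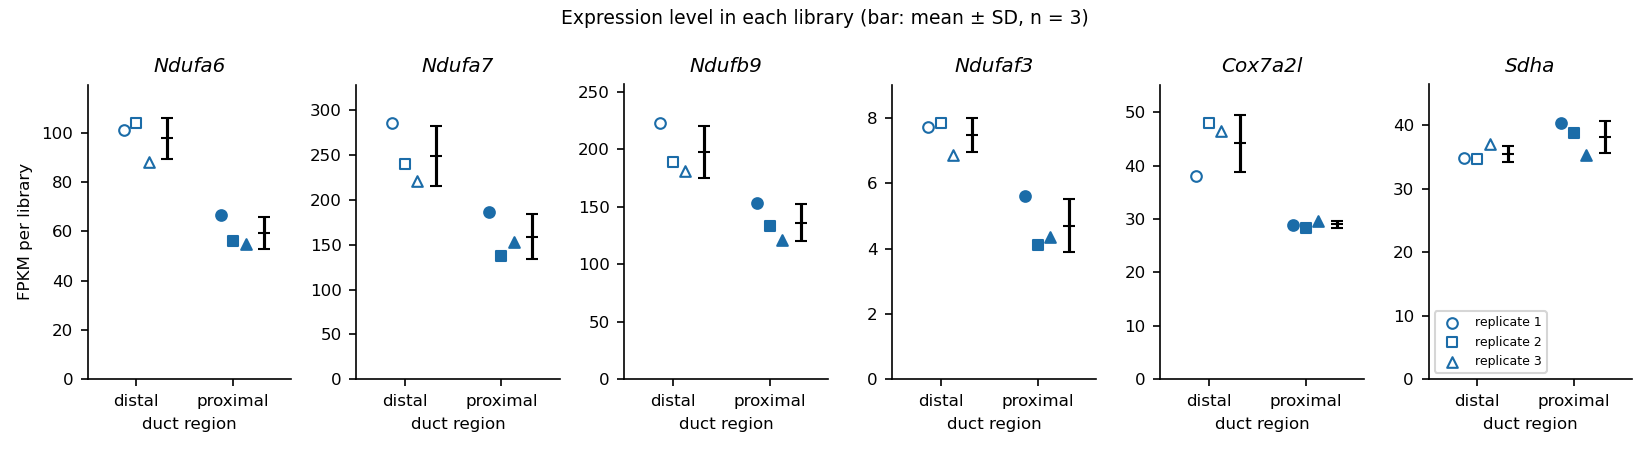
Level of the 5 genes that fell and of Sdha in each library (FPKM, axes from 0), distal libraries open and proximal libraries filled, with the marker shape giving the replicate number and bars the mean ± SD (n = 3). The groups do not overlap in Ndufa6, Ndufa7, Ndufb9, Ndufaf3 and Cox7a2l and overlap in Sdha.

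The median difference lay closer to 0 in the catalytic core of complex I than among its accessory subunits, and the gap between these classes was not tested. The 7 nuclear core subunits carry the flavin and the iron-sulfur clusters. Their median difference was -0.21, and 0 of the 7 passed the test. The 28 tested accessory subunits, which surround the core, had a median of -0.34, with 26 below 0. Of these 28, 3 fell, where 2.5% of all tested genes fell. Median transcript lengths were 1540 bases in the core and 582 bases in the accessory class, and with the length trend removed the medians were -0.14 and -0.19. Without both libraries numbered 1 they were -0.25 and -0.31. The 7 tested assembly factors had a median of -0.19, with 1 that fell. Ndufa3, a small accessory subunit and the most abundant tested gene of complex I, was at 311, 231 and 216 FPKM in the distal libraries and 212, 152 and 163 FPKM in the proximal ones. Those values did not overlap, yet the difference of -0.52 ± 0.18 missed the threshold (SE, limma, adjusted p = 0.125). The highest differences were those of Ndufb2, an accessory subunit, at 0.27 ± 0.18, and of the assembly factor Ndufaf4 at 0.21 ± 0.16 (SE, limma, adjusted p = 0.422 and 0.472). Ndufb2 was at 105, 68.1 and 70.1 FPKM in the distal libraries and 88.7, 113 and 87.4 FPKM in the proximal ones. The groups overlapped, and Ndufb2 overlaps the end of a neighbouring gene. Ndufa11, which received no value, has a deposited transcript in its locus that matched no gene model, at 39.9, 28.8 and 27.8 FPKM in the distal libraries and 32.7, 23.2 and 21.1 FPKM in the proximal ones.

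Complex II, succinate dehydrogenase, is also an enzyme of the citric acid cycle, and all its subunits are nuclear. Its 4 genes did not pass the test, and their median difference was 0.01. Sdha, the flavoprotein that oxidises succinate, was at 34.8, 34.7 and 37.0 FPKM in the distal libraries and 40.4, 38.8 and 35.4 FPKM in the proximal ones, a difference of 0.10 ± 0.10 (SE, limma, adjusted p = 0.565). The groups overlapped through proximal replicate 3. Sdhb, the iron-sulfur subunit, was at 64.3 ± 5.73 FPKM in distal cells and 61.1 ± 8.41 FPKM in proximal cells (SD, n = 3), with a difference of -0.08 ± 0.13 (SE). The membrane anchors Sdhc and Sdhd, which bind ubiquinone, differed by 0.05 ± 0.15 and -0.03 ± 0.11 (SE). The summed level of the complex was 175 ± 13.6 FPKM in distal cells and 175 ± 17.8 FPKM in proximal cells (SD, n = 3). The 4 transcripts had a median length of 1232 bases, against 675 bases over the 84 genes.

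In complex III, the cytochrome bc1 complex, 0 of the 8 genes passed the test, and differences between its roles were not tested. The core proteins Uqcrc1 and Uqcrc2 differed by 0.03 ± 0.16 and 0.11 ± 0.09, and Uqcrfs1, the Rieske iron-sulfur protein, by 0.08 ± 0.11 (SE). The 5 small accessory subunits, Uqcrh, Uqcr10, Uqcr11, Uqcrb and Uqcrq, ran from -0.54 to -0.04 with a median of -0.38, which was -0.13 with the length trend removed. Uqcrh, the hinge protein that contacts cytochrome c1, was at 338, 261 and 231 FPKM in the distal libraries and 234, 163 and 174 FPKM in the proximal ones. Proximal replicate 1 lay just above distal replicate 3, and the difference of -0.54 ± 0.19 missed the threshold (SE, limma, adjusted p = 0.124). Uqcr11 differed by -0.50 ± 0.26 and Uqcr10 by -0.38 ± 0.20 (SE, limma, adjusted p = 0.296 and 0.297). The core and iron-sulfur transcripts were 1313 to 1882 bases long, and those of the small subunits 436 to 546 bases.

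Complex IV, cytochrome c oxidase, contained Cox7a2l, the only gene outside complex I among the 5 that fell. Cox7a2l (chr17:83501918-83517330, minus strand), also called SCAF1, links complexes III and IV into a supercomplex, and C57BL/6 mice are known to carry a shortened form of the protein with reduced function. It was at 38.1, 48.0 and 46.5 FPKM in the distal libraries and 28.9, 28.3 and 29.7 FPKM in the proximal ones. The proximal values were tightly grouped below all distal values, and Cox7a2l fell by 0.59 ± 0.11 on the log2 scale (SE, limma, adjusted p = 0.023). Among the distal libraries it was lowest in replicate 1, the library in which the 84 genes had their highest median deviation. It kept its call under 15 of 20 alternative settings and missed it without distal replicate 2, distal replicate 3, proximal replicate 2 or proximal replicate 3 (adjusted p up to 0.114) and after correction for transcript length, where its difference was -0.52 (adjusted p = 0.0622).

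The 11 ubiquitous subunits of complex IV had a median difference of -0.31, with 10 below 0 and 0 past the threshold. Cox8a, a small membrane subunit and the gene of this class nearest to the threshold, was at 554, 454 and 459 FPKM in the distal libraries and 395, 281 and 307 FPKM in the proximal ones. The groups did not overlap, and the difference was -0.58 ± 0.16 (SE, limma, adjusted p = 0.0656). Cox4i1, which takes part in regulation of the enzyme by ATP, was the most abundant gene of complex IV at 512 ± 58.5 FPKM in distal cells and 396 ± 61.3 FPKM in proximal cells (SD, n = 3), with a difference of -0.37 ± 0.15 (SE, limma, adjusted p = 0.173). Cox6a1 differed by -0.45 ± 0.15 (SE, limma, adjusted p = 0.110). Ndufa4, once assigned to complex I, was the exception in sign, at 353 ± 99.6 FPKM in distal cells and 358 ± 65.3 FPKM in proximal cells (SD, n = 3), or a difference of 0.04 ± 0.21 (SE). That sign was negative without distal replicate 2, distal replicate 3 or proximal replicate 1.

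Several complex IV subunits have isoforms restricted to some tissues, and the basal cells of both regions expressed almost only the ubiquitous form of each pair. Cox4i1 made up at least 99.8% of the Cox4i1 and Cox4i2 level in every library, and Cox4i2, the isoform of lung, reached at most 1.07 FPKM. The heart and skeletal muscle isoforms Cox6a2 and Cox8b reached at most 0.0858 and 0.259 FPKM, and the related Cox7a1 was at 0.255, 0.618 and 0 FPKM in the distal libraries and 0.937, 1.03 and 0 FPKM in the proximal ones. Of the testis isoforms, Cox8c was listed at 0 in all libraries and Cox7b2 in all but 1, at 0.115 FPKM there. Ndufa4l2, known as a hypoxia-induced relative of Ndufa4, was listed at 0 in all 6 libraries. It overlaps the neighbouring gene Shmt2, and a listed 0 can be a failed estimate. The remaining testis isoform, Cox6b2, was the one that passed the expression minimum, at 5.43, 1.96 and 3.54 FPKM in the distal libraries and 3.90, 1.97 and 2.86 FPKM in the proximal ones. It made up 0.566% to 1.08% of the Cox6b1 and Cox6b2 level, and the groups overlapped. The summed level of 8 striated muscle markers was 1.07 to 2.42 FPKM and that of 5 adipocyte markers 0.146 to 0.815 FPKM over the 6 libraries.

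Complex V, the ATP synthase, had 17 tested genes with a median difference of -0.22 and 0 past the threshold. All 17 differences were below 0 as reported, 16 with quantile normalization, where Atp5b was at 0.04, and 11 with the length trend removed. Atp5b, the catalytic beta subunit, was the most abundant of the 84 genes, at 714, 607 and 630 FPKM in the distal libraries and 676, 595 and 587 FPKM in the proximal ones. The groups overlapped, and the difference was -0.07 ± 0.12 (SE, limma, adjusted p = 0.783). The 5 genes of the catalytic head had a median of -0.21, the 4 of the peripheral stalk -0.20 and the 4 small membrane subunits -0.22. Atp5s, the coupling factor, was at 3.54 ± 0.349 FPKM in distal cells and 2.45 ± 0.73 FPKM in proximal cells (SD, n = 3), or a difference of -0.41 ± 0.17 (SE, limma, adjusted p = 0.198).

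The membrane ring that turns with proton flow is built from 1 mature protein encoded by 3 genes. Atp5g3 supplied 78.2% ± 2.18 of their summed level in distal and 79.8% ± 1.55 in proximal cells, Atp5g1 13.6% ± 2.07 and 13.7% ± 1.48, and Atp5g2 8.25% ± 0.884 and 6.51% ± 0.1 (SD, n = 3). Atp5g2 was at 41.3, 36.8 and 30.8 FPKM in the distal libraries and 29.6, 22.6 and 24.2 FPKM in the proximal ones. The groups did not overlap, and the difference of -0.50 ± 0.15 missed the threshold (SE, limma, adjusted p = 0.0849). Atp5g1 and Atp5g3 each differed by -0.15, with SEs of 0.24 and 0.14. The shares of Atp5g2 did not overlap either, at 7.62% to 9.26% in distal and 6.40% to 6.59% in proximal libraries.

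Transcript length moved with these differences. The 84 genes are short, with a median transcript length of 675 bases against 2679 bases over all tested genes. The 52 of them under 800 bases had a median difference of -0.29, and the 32 of 800 bases or more one of -0.17. Genes outside the respiratory chain had medians of -0.19 under 800 bases (529 genes) and 0.00 at 800 bases or more (9642 genes). Across genes, which are not independent replicates and share the same 6 libraries, the Pearson correlation between the difference and log10 length was 0.39 over the 84 genes and 0.08 over all tested genes. With a smooth trend of the level on length removed in each library, the median over the 84 genes was -0.11, against -0.02 over all tested genes. The difference was then below 0 for 61 of the 84 genes, and the share of all tested genes below 0 on that scale is not given here. By complex the median was then -0.15 in complex I, 0.04 in complex II, 0.03 in complex III, -0.14 in complex IV and -0.04 in complex V. On that scale 4 of the 84 genes fell (2.91% of all tested genes fell): Ndufa6, Ndufa7 and Ndufaf3, and also Ndufb11, an accessory subunit named here after its values were seen, while Cox7a2l at -0.52 and Ndufb9 at -0.36 missed the threshold (limma, adjusted p = 0.0622 and 0.0678).

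**Figure D4:**
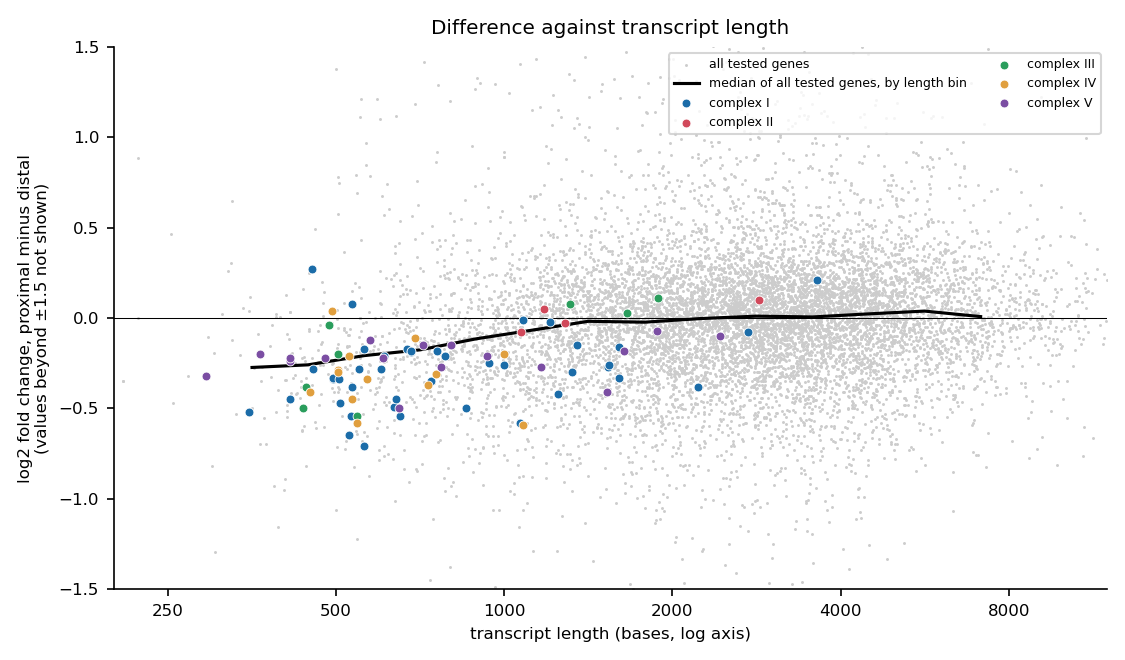
Difference between proximal and distal cells (log2 fold change) against transcript length in bases on a log axis, with all tested genes in grey, their median by length bin as a line and the respiratory chain genes coloured by complex. The line falls from about 0 at long transcripts to -0.24 in the shortest class of genes, and the short respiratory chain genes lie mostly on or below it.

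**Figure D5:**
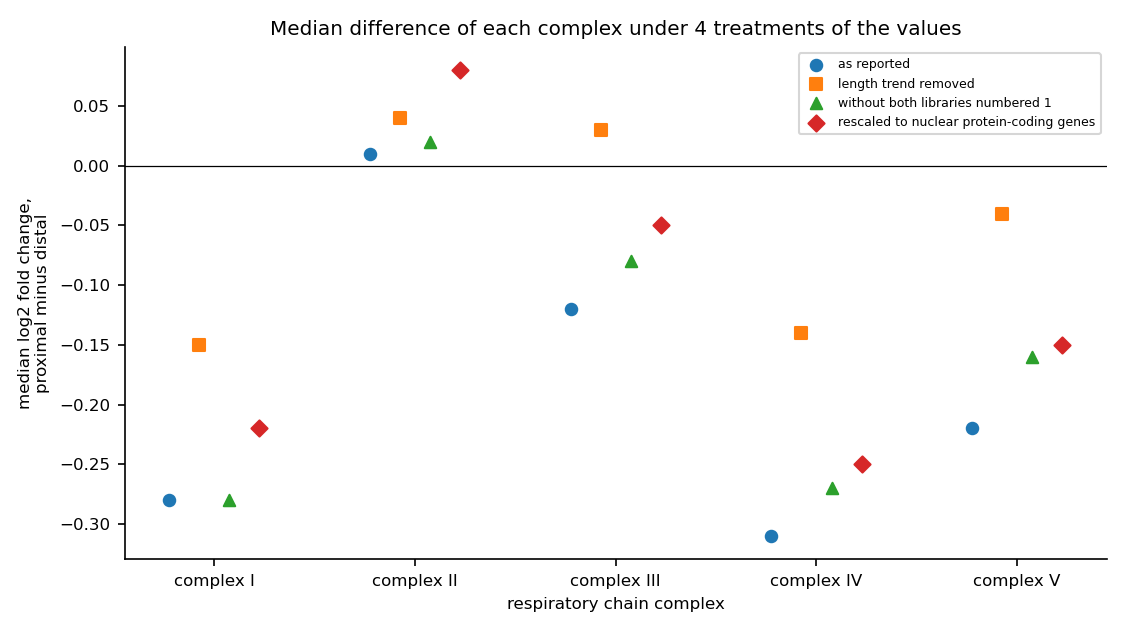
Median log2 fold change of each complex as reported, with the length trend removed, without both libraries numbered 1, and rescaled to the total of nuclear protein-coding genes. Complexes I and IV stay below 0 under all 4, complex II stays above 0, and complex III lies at 0.03 with the length trend removed.

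The promoters of 4 of the 5 genes that fell are shown, Ndufb9 being the one with no entry in the promoter table used. Beside them stands that of Sdha, 1 selected gene whose level did not pass the test. Sdha does not represent the other genes that did not pass. The 120 bases before the RefSeq start were taken from GRCm38.p6, the assembly of mm10, written 5′ to 3′ on the strand of the gene. Capitals mark a match to 1 of 3 motifs searched on both strands, those of NRF1 (GCGCA and GCGC with 1 base of any kind between them), of the ETS family (CCGGAAG), to which the nuclear respiratory factor GABP belongs, and of YY1 (ATGGCGG), factors known to act on respiratory chain genes. No 2 matches overlapped. The windows are chr15:82354292-82354411 for Ndufa6, chr17:33824452-33824571 for Ndufa7, chr9:108567437-108567556 for Ndufaf3, chr17:83514334-83514453 for Cox7a2l and chr13:74350241-74350360 for Sdha, with Ndufa7 on the plus strand and the other 4 on the minus strand. The Ndufaf3 window starts 94 bases from the deposited transcript's start. The Cox7a2l window adjoins the deposited transcript's start but lies inside the annotated gene, which runs to 83517330.
Ndufa6: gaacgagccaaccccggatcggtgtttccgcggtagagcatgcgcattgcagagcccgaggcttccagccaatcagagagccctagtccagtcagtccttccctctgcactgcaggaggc
Ndufa7: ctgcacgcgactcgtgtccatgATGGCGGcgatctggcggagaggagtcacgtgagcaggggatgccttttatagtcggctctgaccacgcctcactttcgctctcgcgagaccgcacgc
Ndufaf3: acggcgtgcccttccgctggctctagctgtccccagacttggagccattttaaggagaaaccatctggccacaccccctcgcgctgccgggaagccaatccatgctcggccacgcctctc
Cox7a2l: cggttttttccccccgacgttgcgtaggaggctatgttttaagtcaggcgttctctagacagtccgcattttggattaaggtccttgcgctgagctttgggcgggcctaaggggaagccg
Sdha: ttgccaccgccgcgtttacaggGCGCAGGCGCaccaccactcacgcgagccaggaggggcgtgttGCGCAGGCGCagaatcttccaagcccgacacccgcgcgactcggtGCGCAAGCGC

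The Sdha window held 3 NRF1 matches, the Ndufa7 window 1 YY1 match, and the windows of Ndufa6, Ndufaf3 and Cox7a2l 0 matches to these letters. Of the 84 tested genes, 69 had a RefSeq promoter of 250 bases before the start. In these, the NRF1 motif occurred in 12 (17.4%, against 9.04% of 8064 tested genes with a promoter), the ETS motif in 14 (20.3%, against 15.4%) and the YY1 motif in 4 (5.8%, against 4.01%). The NRF1 motif was found in 6 of 37 complex I, 2 of 3 complex II, 0 of 5 complex III, 1 of 11 complex IV and 3 of 13 complex V genes. Genes with differences near 0 varied: Sdhb, Uqcrc1 and Uqcrfs1 held 0 NRF1 matches, Sdhd 1 and Sdha 3. So did genes with lower differences that missed the threshold. Cox6a1 at -0.45 held 3 and Atp5g2 at -0.50 held 2, while Cox8a at -0.58, Uqcrh at -0.54 and Ndufa3 at -0.52 held 0. A site that reads as the motif on both strands was counted on each. Counts above 1 outside the printed windows can therefore exceed the number of sites. A match is a description of letters and shows no binding. The factors themselves did not pass the test: Nrf1 was at 16.4 ± 0.975 FPKM in distal cells and 18.2 ± 3.15 FPKM in proximal cells, Gabpa, the DNA-binding subunit of GABP, at 10.8 ± 0.554 and 10.3 ± 1.13 FPKM, and Yy1 at 7.44 ± 0.491 and 7.23 ± 0.826 FPKM (SD, n = 3). Over the list of 16 tested regulators of mitochondrial biogenesis, which includes these 3, 0 rose and 0 fell, with a median difference of 0.02.

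The partner subunits that mitochondrial DNA encodes lay around 0. Of 13 such genes 6 matched a deposited transcript, 0 passed the test in either direction, and their median difference was 0.02. mt-Co1, the catalytic subunit of complex IV, was at 1340, 1530 and 1370 FPKM in the distal libraries and 1320, 1280 and 1340 FPKM in the proximal ones, a difference of -0.10 ± 0.12 (SE, limma, adjusted p = 0.662). Its proximal values lay just below the distal ones, by less than the spread within the distal group. mt-Co2, which receives electrons from cytochrome c, differed by 0.07 ± 0.14, and mt-Atp6, the proton channel subunit of complex V, by -0.03 ± 0.12 (SE). The complex I subunits mt-Nd2, mt-Nd4 and mt-Nd5 differed by 0.12 ± 0.18, -0.02 ± 0.12 and 0.15 ± 0.27 (SE). These transcripts had a median length of 1346 bases, and mt-Co2 is 690 bases long.

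Other genes of mitochondrial energy metabolism had medians from -0.13 to 0.00. Of 16 tested electron carriers and enzymes of ubiquinone synthesis, 0 rose and 0 fell (median -0.10), and 11 were below 0. Of 34 tested assembly factors named outside the symbols above, 0 rose and 0 fell (median -0.13), and 23 were below 0. With the length trend removed these medians were -0.08 and -0.09, against -0.11 for the respiratory chain genes. Summed over the assembly factors, the level was 447 to 510 FPKM in distal and 363 to 430 FPKM in proximal libraries, without overlap. Of 17 citric acid cycle and pyruvate dehydrogenase genes, 0 rose and 0 fell (median 0.00), and of 7 nucleotide carriers, uncoupling proteins and porins, 0 rose and 0 fell (median -0.02). Among 23 tested genes of mitochondrial protein import, 1 rose and 0 fell (median 0.00): Timm50, a receptor of the inner membrane translocase, was at 33.3 ± 1.26 FPKM in distal cells and 50.9 ± 3.49 FPKM in proximal cells (SD, n = 3), which was a rise of 0.59 ± 0.10 (SE, limma, adjusted p = 0.0117). With close transcript matches only, its difference was -0.11, so its call rests on a transcript matched by exon content. Among 75 tested mitochondrial ribosomal protein genes, 0 rose and 2 fell (median -0.02), where 4.52% of all tested genes rose and 2.5% fell. Mrps36 fell by 0.81 ± 0.13 and Mrps6 by 0.83 ± 0.16 (SE, limma, adjusted p = 0.0122 and 0.023). Summed over that list, the level was 2130 to 2350 FPKM in distal and 1730 to 2050 FPKM in proximal libraries, without overlap. Its transcripts had a median length of 1029 bases, and its median was 0.03 with the length trend removed.

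Cytosolic ribosomal protein genes, which are short as well, showed a similar shift. Of 80 tested, 75 were below 0, and the median was -0.31 at a median length of 714 bases. Of the 80, 0 rose and 4 fell, where 4.52% of all tested genes rose and 2.5% fell. Those that fell were Rpl13, Rpl23a, Rps16 and Rps3a1, with differences of -0.45, -0.53, -0.44 and -0.41. With the length trend removed the median of the list was -0.16 and that of the respiratory chain genes -0.11. Over all libraries the summed ribosomal protein level was 13000, 11700 and 11300 FPKM in the distal libraries and 10300, 8390 and 10100 FPKM in the proximal ones, and these groups did not overlap. Whether the 2 lists share a cause was not tested.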

How the data were processed

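Per the submitters' processing notes, the tools for the 6 libraries (3 distal, 3 proximal) were bcl2fastq 1.8.3, TopHat and Cufflinks, with the build mm10 and an annotation not given in the sources used here. Per the labels' protocols, cDNA was made with both random and oligo(dT) primers. Each deposited file lists FPKM by transcript with an interval, per the file headers, and these values were used as deposited. Each deposited file also lists coverage, a signal not scaled to the library, per the file headers; it served no test. Whole fragments could not be recovered, since Cufflinks divides fragments between transcripts.

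The 63241 transcripts carry no gene names. They were matched to GENCODE M21 (GRCm38, the assembly of mm10) by genomic span and spliced length (49609 close matches) or by exon content (3714), which kept 93.9% of the FPKM, and FPKM was summed by gene. Genes whose mean reached 1 FPKM were tested on log2(FPKM + 1), a scale that understates changes of low genes, with limma 3.58.1 (R 4.3.3), a variance trend, two-sided, with no covariates and Benjamini-Hochberg adjustment over all 10255 genes. The procedure was tested on simulated data.

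Depth was derived from the deposited intervals. The deposited status was other than OK somewhere for 25 transcripts, none of them of a respiratory chain gene. Many respiratory chain and ribosomal protein genes have processed pseudogenes, and the sources used here do not say how reads shared with them were divided. The members, lists and naming rule were chosen with earlier results of these data known. Named are genes that passed the test, in each complex the 2 most abundant and the 2 with the largest differences each way, isoform families, all Sdh genes, the mitochondrially encoded genes and up to 4 passing genes per related list; Nrf1, Gabpa and Yy1 are named for their motifs, and some role classes are listed by name. The results of some genes are left out of the text. Alternatives were other pseudocounts (0.1 and 0.5), filters (none, 5 FPKM), scalings, matching rules, a length correction, a replicate block and libraries left out.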

Additional observations from a re-analysis of the deposited data

How the results depend on the processing

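Under every alternative run the median difference of each complex moved by less than the replicate SD of its median log2 level. That is a wide limit, because the SD was 0.2, 0.128, 0.215, 0.222 and 0.222 in complexes I to V. In complexes II, III and V it was about as large as the median difference or larger. The length correction moved complex I from -0.28 to -0.15, III from -0.12 to 0.03, IV from -0.31 to -0.14 and V from -0.22 to -0.04, within that limit. With libraries left out one at a time the median difference ran from -0.40 to -0.18 in complex I, -0.07 to 0.07 in complex II, -0.21 to 0.00 in complex III, -0.43 to -0.14 in complex IV and -0.34 to -0.05 in complex V. The number of respiratory chain genes that fell was 5 as reported (5.95%, against 2.5% of all tested genes). It was 2 of 89 with no expression filter (2.25%, against 0.738%) and 3 of 81 with a filter at 5 FPKM (3.7%, against 2.51%). With no variance trend it was 3 (3.57%, against 2.31%), and with quantile normalization 9 (10.7%, against 3.73%). Without both libraries numbered 1 it was 28 (33.3%, against 12.9%), with 1 that rose, Ndufb2 (8.59% of all tested genes rose). On leaving out 1 library it ran from 0 to 13. It was 0 without distal replicate 2, proximal replicate 2 or proximal replicate 3, and 1 without distal replicate 3. Without distal replicate 1 it was 2 (2.38%, against 5.99% of all tested genes). Without proximal replicate 1 it was 13 (15.5%, against 5.39%). Over all tested genes, 273 rose and 168 fell of 6681 with the filter at 5 FPKM, and 137 fell of 18570 with no filter. Without both libraries numbered 1, 881 rose and 1328 fell, and on leaving out 1 library 192 to 550 rose and 45 to 614 fell. Rescaling to nuclear protein-coding genes moved the median of all tested genes from -0.01 to 0.05 and that of the respiratory chain genes from -0.26 to -0.20, and turned 464 higher and 256 lower calls into 560 and 202.

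The labels do not say that a replicate number marks a shared animal or day. The deviations of same-numbered libraries correlated at 0.38, 0.045 and 0.29 for numbers 1, 2 and 3, and libraries 1 and 3 but not 2 correlated best with their own number, so the pairing was not used. With the replicate block 25 respiratory chain genes fell (7.14% of all tested genes fell), and 880 genes rose and 732 fell overall. An alternative chosen after seeing the data used the replicate block with the length trend removed. There 12 fell (14.3%, against 6.79% of all tested genes) and 1 rose (Ndufa4, where 8.88% of all tested genes rose). Of all tested genes 911 rose and 696 fell.

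Some differences changed sign under other settings, and none passed the test there. All but that of Timm50 had not passed as reported. Quantile normalization gave 0.04 for Atp5b, 0.17 for mt-Atp6, 0.09 for mt-Co1 and 0.02 for mt-Nd4. Rescaling gave 0.04 for Sdhd and mt-Atp6 and 0.05 for mt-Nd4. The length correction, with or without the block, gave 0.01 for Atp5g3, Cox6b2 and Sdhd and 0.09 for mt-Atp6. Timm50, called at 0.59 as reported, was at -0.11 with close matches only. On leaving out 1 library the difference ran from -0.34 to 0.09 for Atp5g1, -0.50 to 0.06 for Cox6b2, -0.09 to 0.26 for Ndufa4, -0.18 to 0.00 for Sdhb, -0.06 to 0.17 for Sdhc, -0.08 to 0.04 for Sdhd, -0.08 to 0.01 for mt-Atp6, -0.02 to 0.13 for mt-Co2, -0.02 to 0.28 for mt-Nd2, -0.10 to 0.03 for mt-Nd4 and -0.05 to 0.43 for mt-Nd5. The cause of these changes was not tested.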
